A study of Mus musculus with 30 samples.

Results

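The genes described are 10 that encode proteins of the Z-disc, of the sites where the contractile fibrils anchor to the membrane, or of stretch-responsive signalling in striated muscle. They are Ankrd1, Ankrd2, Csrp3, Xirp1, Xirp2, Fhl1, Fhl2, Enah, Nrap and Flnc. They were taken as the rows of the deposited count table whose symbol is one of these names, 10 of 55487 genes, and all 10 passed the filter on low counts in both cohorts. The study asked what Cpt1a, the enzyme that commits long-chain fatty acids to mitochondrial import, does in the heart under pressure overload. Poly(A) RNA was sequenced from 30 mouse hearts collected 8 weeks after transverse aortic constriction (TAC), in which a clip narrows the aorta and the left ventricle must pump against a higher pressure, or after sham surgery.

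In the floxed cohort, mice labelled CPT1a floxed had sham surgery (FF_sham, 4 hearts) or TAC (FF_TAC, 4 hearts), and mice labelled as cardiac-specific CPT1a knockouts had sham surgery (KO_sham, 4 hearts) or TAC (KO_TAC, 4 hearts). The Cre driver of the knockout, and whether the floxed controls carried Cre, are not given in the sources used here. The titles of the KO_TAC hearts name both TAC and sham, and their genotype and treatment labels were followed. In the AAV9 cohort, C57Bl/6 mice received saline with sham surgery (PBS_sham, 3 hearts) or TAC (PBS_TAC, 3 hearts), or the vector AAV9.Cpt1a, driven by a cardiac troponin T promoter going by its name in the design text, with sham surgery (AAV_sham, 4 hearts) or TAC (AAV_TAC, 4 hearts). The controls of that cohort received no empty vector, so the virus and its cargo cannot be told apart. The clip was 0.016 or 0.018 inch wide, and the labels do not say which heart had which. Sex and age were not given in the sources used here.

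The Z-disc is the lattice that holds the barbed ends of the actin filaments of neighbouring sarcomeres together and ties them to titin. It also works as a sensor of load: proteins that sit there, or shuttle between it and the nucleus, link stretch to transcription. Several of the genes described here are known to be induced when the heart muscle is stretched or overloaded, and Ankrd1 is widely used as a marker of that state.

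Total counts per library ran from 14839758 to 22070373. Levels are CPM, counts scaled to the library total and by TMM within a cohort. Cardiomyocyte markers were high in every library (Myh6 at 10720 CPM or more), while the 9 skeletal muscle markers summed to between 2.76 and 21.9 CPM, so the markers matched the tissue label. Some libraries stood apart. In 7 floxed-cohort libraries (FF_TAC 2 and 3, KO_sham 2 and all 4 KO_TAC), haemoglobin transcripts summed to between 1.40 and 51.1 CPM, against 293.9 CPM or more in the other 23, and Fos ran from 39.9 to 691 CPM, against 1.04 to 4.79 CPM in the other libraries of that cohort. PBS_sham 3 had Actc1 at 921 CPM and the smooth muscle myosin Myh11 at 698 CPM, the lowest and the highest of all libraries. Atrial Myl7 ran from 0 to 3143 CPM and was highest in KO_TAC 1. Cpt1a averaged 45.0 CPM in FF_sham, 28.2 CPM in KO_sham, 29.8 CPM in FF_TAC and 14.2 CPM in KO_TAC. By edgeR its log2 fold change was -0.68 in KO_sham against FF_sham (adjusted p = 0.950). It was -1.07 in KO_TAC against FF_TAC (adjusted p = 0.0405). A lower Cpt1a RNA level in the knockout was thus not shown without overload. KO_sham 2 had 46.2 CPM, inside the range of FF_sham, so the Cpt1a level of that library does not set it apart from the controls.

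Per kilobase of exon, the 10 genes spanned a wide range of levels. In FF_sham hearts, Fhl2 stood first at 714 ± 89.6 CPM per kb (SD, n = 4), followed by Ankrd1 at 524 ± 236 and Csrp3 at 411 ± 56.97, whose spreads met in places. Nrap came next at 125 ± 22.9 CPM per kb. Xirp1 (42.7 ± 5.11), Flnc (41.4 ± 3.93), Xirp2 (35.7 ± 5.99) and Fhl1 (35.0 ± 8.11 CPM per kb) could not be ordered beyond their spread. Enah was at 5.53 ± 0.689 and Ankrd2 at 0.443 ± 0.372 CPM per kb, which makes Ankrd2 the only member near the limit of detection. In all 4 TAC groups the first place went to Ankrd1, which reached 4122 ± 1767 CPM per kb in KO_TAC.

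The 10 genes lie on chromosomes 1, 2, 6, 7, 9, 19 and X. On GRCm38 the 3 members on chromosome 19 are Ankrd1 (chr19:36111961-36120099), Ankrd2 (chr19:42036000-42045110) and Nrap (chr19:56320035-56390037). Exons of Nrap share 376 bases with opposite-strand genes, of which the more abundant had at most 297 counts in a library, and Xirp2 exons share 168 bases with Gm13601, which had at most 2 counts. Because the strand setting of the counting is not given, these 2 members are uncertain to that extent. RefSeq promoter windows (GRCm38.p6) were held for 9 of the 10 genes, with 13 windows in all because some have more than 1 start. They were searched on both strands for letters that muscle transcription factors are known to bind. These were the CArG box of Srf, the MEF2 box, the M-CAT element CATTCC of the TEAD factors, the GATA letters AGATAA and the E box CAGCTG. The TATA box TATAAA was searched on the strand of the gene only. These stretches are shown because overload moved Xirp2, Flnc and Ankrd1 upward in KO_TAC and did not raise Fhl2 to a call, as described further on. The capitals mark the matched letters of the CArG box, MEF2 box or M-CAT element, the first and second sequences lying just upstream of the gene and the third at a start within Fhl2, in an intron of the longer transcript. The Xirp2 window is chr2:67445752-67446001 on the plus strand, with a MEF2 match beginning 74 bases before the start. The Flnc window is chr6:29433006-29433255 on the plus strand, with an M-CAT match beginning 104 bases before the start. The Fhl2 window is chr1:43163962-43164211 on the minus strand, with a CArG box beginning 31 bases before the start.
Xirp2: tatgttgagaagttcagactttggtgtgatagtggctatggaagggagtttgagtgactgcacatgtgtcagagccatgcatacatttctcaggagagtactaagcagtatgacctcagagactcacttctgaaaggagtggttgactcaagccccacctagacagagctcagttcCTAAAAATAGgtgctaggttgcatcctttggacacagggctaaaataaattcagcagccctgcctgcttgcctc
Flnc: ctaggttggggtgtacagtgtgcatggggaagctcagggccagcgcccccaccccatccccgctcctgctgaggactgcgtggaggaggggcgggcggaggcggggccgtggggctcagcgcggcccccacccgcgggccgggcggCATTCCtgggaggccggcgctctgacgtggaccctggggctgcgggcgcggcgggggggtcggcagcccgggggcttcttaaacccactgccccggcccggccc
Fhl2: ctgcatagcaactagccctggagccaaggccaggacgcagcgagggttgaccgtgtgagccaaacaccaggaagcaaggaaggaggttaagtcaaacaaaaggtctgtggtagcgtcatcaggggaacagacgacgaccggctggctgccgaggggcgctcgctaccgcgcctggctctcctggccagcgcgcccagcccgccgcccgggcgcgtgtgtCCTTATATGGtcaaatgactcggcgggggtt
Short stretches of Ankrd1 carry the M-CAT letters in reverse orientation (GGAATG), beginning 210 and 123 bases before the RefSeq start, at chr19:36120039-36120064 and chr19:36119952-36119977 on the minus strand, where GENCODE annotates the 5′ UTR of a longer transcript.
Ankrd1 first: cactgccaaaGGAATGaccctctcac
Ankrd1 second: cactaagtctGGAATGaaaattcacc
M-CAT letters were present in windows of Ankrd1 and Flnc, and in 12.6% of all 32851 windows of that length. The CArG box was present in windows of Fhl1 and Fhl2, against 1.47% of all windows, and the MEF2 box in that of Xirp2, against 1.69%. The letters AGATAA were present in windows of Ankrd1 and Fhl2 (9.99% of all windows), CAGCTG in that of Nrap (4271 of all windows) and TATAAA in that of Ankrd2 (7.59%). A match of letters is not a measured binding site.

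Ankrd1 and Ankrd2 encode muscle ankyrin repeat proteins, which bind titin at the I-band and can enter the nucleus. Ankrd1 (ENSMUSG00000024803) was the most abundant responder. It stood at 1429, 986, 2496 and 1137 CPM in the FF_sham hearts and at 1296, 7686, 5244 and 3515 CPM in the FF_TAC hearts. It stood at 2639, 1733, 2639 and 2386 CPM in KO_sham and at 5616, 17100, 14770 and 10100 CPM in KO_TAC. FF_TAC 1 lay inside the sham range, whereas every KO_TAC heart lay above every KO_sham heart. In the AAV9 cohort Ankrd1 was at 1568, 1455 and 551 CPM in PBS_sham against 4980, 3471 and 5405 CPM in PBS_TAC, and at 1188, 2494, 1103 and 1250 CPM in AAV_sham against 5022, 6994, 2431 and 3412 CPM in AAV_TAC. AAV_sham 2 and AAV_TAC 3 overlapped there, and the saline groups did not. Ankrd2 (ENSMUSG00000025172), better known from skeletal muscle, had differences of the same direction at a far lower level. It ran from 0.244 to 1.14 CPM in FF_sham and from 0.602 to 5.54 CPM in FF_TAC. It ran from 0.364 to 1.01 CPM in KO_sham and from 0.836 to 5.65 CPM in KO_TAC, where the lowest heart, KO_TAC 1, overlapped the sham hearts.

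**Figure D1:**
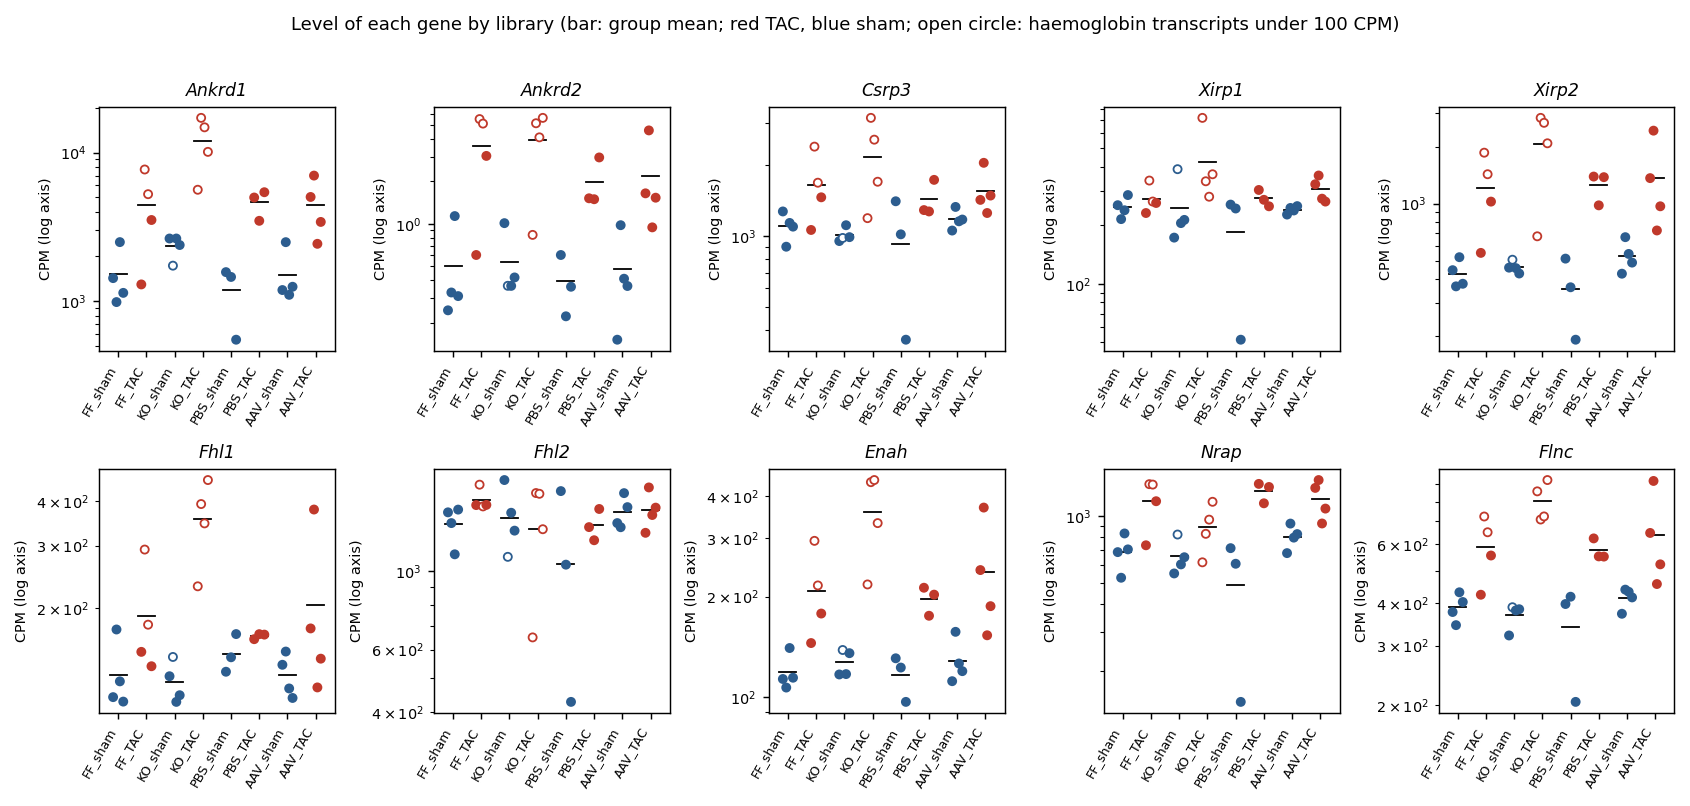
Level of each of the 10 genes in all 30 libraries, in CPM on log axes, by group (blue sham, red TAC, bar the group mean, open circles the 7 libraries with haemoglobin transcripts under 100 CPM). Every gene except Fhl2 has a higher mean after TAC in all 4 pairs of groups. Fhl2 means lie between 1047 and 1580 CPM throughout, and only in the knockout is the Fhl2 mean lower after TAC.

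Csrp3, Fhl1 and Fhl2, which encode LIM-domain proteins, did not all behave alike. Csrp3 (muscle LIM protein, ENSMUSG00000030470, chr7:48830398-48848033), which anchors signalling proteins at the Z-disc, stood at 951, 980, 1109 and 988 CPM in KO_sham and at 1188, 3151, 2549 and 1693 CPM in KO_TAC, with no overlap. Its FF_TAC hearts, at 1059, 2382, 1677 and 1455 CPM, overlapped FF_sham at 1268, 900, 1134 and 1094 CPM. Fhl1 (ENSMUSG00000023092, X:56731787-56793346), which binds the N2B spring element of titin, stood at 129, 146, 109 and 114 CPM in KO_sham and at 230, 393, 346 and 459 CPM in KO_TAC. Every KO_TAC heart was thus above every KO_sham heart, while in FF_TAC the values of 151, 292, 180 and 137 CPM reached into the FF_sham range of 109 to 174 CPM. Fhl2 (ENSMUSG00000008136, chr1:43123074-43196984), a cofactor of Srf and beta-catenin that is abundant in the heart, did not follow its relative in the knockout. It stood at 1798, 1094, 1455 and 1296 CPM in KO_sham and at 650, 1653, 1645 and 1308 CPM in KO_TAC, and the groups overlapped. Its FF_TAC hearts, at 1529, 1745, 1516 and 1531 CPM, were all above FF_sham at 1459, 1361, 1112 and 1485 CPM. That difference was small, at a log2 fold change of 0.22 (SE 0.23).

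The remaining 5 genes encode proteins that bind actin. Xirp2 (ENSMUSG00000027022, chr2:67446002-67526614), a Xin repeat protein that binds actin and alpha-actinin, was at 460, 506, 457 and 428 CPM in KO_sham and at 673, 2832, 2667 and 2080 CPM in KO_TAC. In FF_sham it was at 446, 367, 522 and 378 CPM and in FF_TAC at 550, 1856, 1429 and 1025 CPM. Neither pair overlapped, although FF_TAC 1 and KO_TAC 1 came close to the sham hearts. Its relative Xirp1 (ENSMUSG00000079243, chr9:120013755-120023598), a protein of the intercalated disc, was at 173, 390, 206 and 214 CPM in KO_sham and at 719, 338, 281 and 368 CPM in KO_TAC, and KO_sham 2 lay inside the TAC values. Enah (ENSMUSG00000022995, chr1:181896384-182019990), an Ena/VASP protein that promotes actin filament elongation at the intercalated disc, was at 117, 138, 117 and 135 CPM in KO_sham and at 218, 441, 447 and 332 CPM in KO_TAC. Flnc (ENSMUSG00000068699, chr6:29433256-29461883), the muscle filamin that cross-links actin at Z-discs and responds to damage there, was at 321, 390, 381 and 384 CPM in KO_sham and at 858, 708, 723 and 927 CPM in KO_TAC. Both were above every sham heart in every KO_TAC heart. Nrap (ENSMUSG00000049134), a nebulin-related protein used in assembling myofibrils, was at 550, 825, 605 and 651 CPM in KO_sham and at 618, 831, 963 and 1159 CPM in KO_TAC, which overlapped.

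The test of overload in the knockout called 8 of the 10 genes, all higher, where 25.8% of all 15596 genes tested were called and 14.3% were called higher. A call means an adjusted p (Benjamini-Hochberg, over all genes of the cohort) under 0.05 in edgeR's quasi-likelihood test. Ankrd2 rose by 2.82 on the log2 scale (SE 0.70, adjusted p = 0.0120), Ankrd1 by 2.34 (SE 0.46, adjusted p = 0.00402) and Xirp2 by 2.16 (SE 0.38, adjusted p = 0.00254), which in group means were 7.31-, 5.06- and 4.46-fold. Fhl1 rose by 1.52 (SE 0.25, adjusted p = 0.00175) and Enah by 1.501 (SE 0.23, adjusted p = 0.00120). Flnc rose by 1.12 with the smallest spread (SE 0.15, adjusted p = 0.000619), and Csrp3 by 1.09 (SE 0.27, adjusted p = 0.0108). Xirp1 rose by 0.80 (SE 0.28, adjusted p = 0.0487), a call that was lost without any 1 of 6 of the 8 libraries: without KO_TAC 1 its log2 fold change was 0.41 (adjusted p = 0.148). Fhl2 was at -0.10 (SE 0.23, adjusted p = 0.760) and Nrap at 0.44 (SE 0.22, adjusted p = 0.146). The median over the 10 genes was 1.31, against 0.02 over all genes tested. In whole-heart RNA, a change in the share of muscle cells and a change in RNA per muscle cell cannot be told apart.

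All 4 KO_TAC libraries and 1 of the 4 KO_sham libraries were low in haemoglobin, and with a term for those libraries only Enah (log2 1.16, adjusted p = 0.0457) and Flnc (0.88, adjusted p = 0.0297) were called. The other 6 kept their direction, for example Ankrd1 at 1.76 (adjusted p = 0.159) and Xirp2 at 1.62 (adjusted p = 0.0918). The haemoglobin-low sham heart, KO_sham 2, was the highest of its group for 6 of the 10 genes, Xirp2 and Enah among them, and the lowest for 2. It lay below every KO_TAC heart for Ankrd1, Ankrd2, Csrp3, Xirp2, Fhl1, Enah and Flnc, and not for Xirp1, Fhl2 and Nrap. Its Xirp1 level of 390 CPM exceeded 3 of the 4 KO_TAC hearts.

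Markers of several cell types moved in the same comparison. Of 5 fibroblast markers 3 were called higher (Postn, Col1a1 and Dcn), and their list summed to 1360 to 2025 CPM in KO_TAC against 659 to 915 CPM in KO_sham. Of 3 endothelial markers 2 were called lower (Kdr at -1.30 and Cdh5 at -0.56), with sums of 320.1 to 469.5 CPM against 465 to 618 CPM. Of 6 cardiomyocyte markers 3 were called lower (Pln at -0.65, Myh6 at -0.59 and Ryr2 at -0.53), with sums of 43250 to 59530 CPM against 50260 to 52240 CPM. The other 3 cardiomyocyte markers were above 0, at up to 0.48, and were not called. Of 4 atrial markers only Nppa, also a ventricular overload gene, was called, higher, and that list summed to 4498 to 17210 CPM against 106 to 3151 CPM. Of the smooth muscle and leukocyte markers none was called. Of the 4 skeletal muscle markers tested 1 was called higher, with list sums of 3.83 to 21.9 CPM against 4.70 to 7.90 CPM. Of 12 early response markers 1 was called higher, and of 4 erythroid markers 3 were called lower. Myl7, an atrial myosin light chain, was at 3143 CPM in KO_TAC 1 and under 1 CPM in the other 3 KO_TAC hearts. KO_TAC 1 was also the lowest of its group for 8 of the 10 genes. Without it Ankrd2 was at 3.15, Ankrd1 at 2.56, Xirp2 at 2.44, Fhl1 at 1.68, Enah at 1.67, Csrp3 at 1.28 and Flnc at 1.08, all called, Nrap was called as well at 0.57 (adjusted p = 0.0426), and Xirp1 (0.41) and Fhl2 (0.11) were not. The part of the marker shifts in the results was not tested.

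In the other 3 pairs of groups no member was called, but all 10 log2 fold changes were above 0 in each. In floxed controls 0% of genes were called at all. At an unadjusted p under 0.05, 8 of the 10 members passed, against 11.1% of all genes, and DESeq2 called 5 (Ankrd1, Ankrd2, Xirp2, Enah and Flnc), against 1.07% of the genes it tested. The largest differences were those of Ankrd2 at 2.80 (SE 0.72), Ankrd1 at 1.55 (SE 0.45) and Xirp2 at 1.505 (SE 0.38), each with an edgeR adjusted p of 0.328, and the median over the 10 genes was 0.68. FF_TAC 1 was the lowest of its group for 8 of the 10 genes and lay within the sham range for 7, whereas FF_TAC 2 was the highest for all 10. Without FF_TAC 1, Ankrd1 was at 1.85 (adjusted p = 0.0524), Xirp2 at 1.74 (adjusted p = 0.0514) and Flnc at 0.71 (adjusted p = 0.0479), the last of which was called. Between the haemoglobin-rich libraries alone, which leave FF_TAC 1 and FF_TAC 4 against 4 sham hearts, Xirp2 was at 0.88 and Ankrd1 at 0.67.

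Saline-injected hearts gave values of the same order. There 0.0318% of 15745 genes were called. At an unadjusted p under 0.05, 6 of the 10 members passed, against 18.5% of all genes, and DESeq2 called 4 (Ankrd1, Ankrd2, Xirp2 and Nrap), against 2.25%. Ankrd2 was at 2.33 (SE 0.67), Ankrd1 at 1.96 (SE 0.47), Xirp2 at 1.81 (SE 0.42) and Nrap at 1.40 (SE 0.41), with edgeR adjusted p-values of 0.156, 0.134, 0.117 and 0.161. Nrap stood at 716, 609 and 145 CPM in PBS_sham and at 1396, 1141 and 1352 CPM in PBS_TAC. The low value belongs to PBS_sham 3, which was the lowest of its group for 8 of the 10 genes and which had the lowest summed cardiomyocyte and the highest summed smooth muscle markers of all libraries (21470 and 1795 CPM). Without it, Nrap was called at 0.97 (adjusted p = 0.0414), Ankrd1 was at 1.61, Xirp2 at 1.51, Xirp1 at 0.14 and Fhl2 at -0.01. Without PBS_sham 1, 4 members were called: Ankrd1, Ankrd2, Xirp2 and Nrap.

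In vector-injected hearts 0.00635% of genes were called. At an unadjusted p under 0.05, 6 of the 10 members passed, against 7.05% of all genes, and DESeq2 called 4 (Ankrd1, Ankrd2, Xirp2 and Enah), against 0.596%. Ankrd2 was at 2.21 (SE 0.57), Ankrd1 at 1.57 (SE 0.40), Xirp2 at 1.37 (SE 0.36) and Enah at 0.89 (SE 0.23), with edgeR adjusted p-values of 0.258 to 0.259. AAV_TAC 2 was the highest of its group for all 10 genes and AAV_TAC 3 the lowest for 8, with Fhl1 at 379 CPM in the first and 120 CPM in the second. For Fhl2 the 4 sham hearts averaged 1462 ± 150 CPM and the 4 TAC hearts 1482 ± 181 CPM (mean ± SD).

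**Figure D2:**
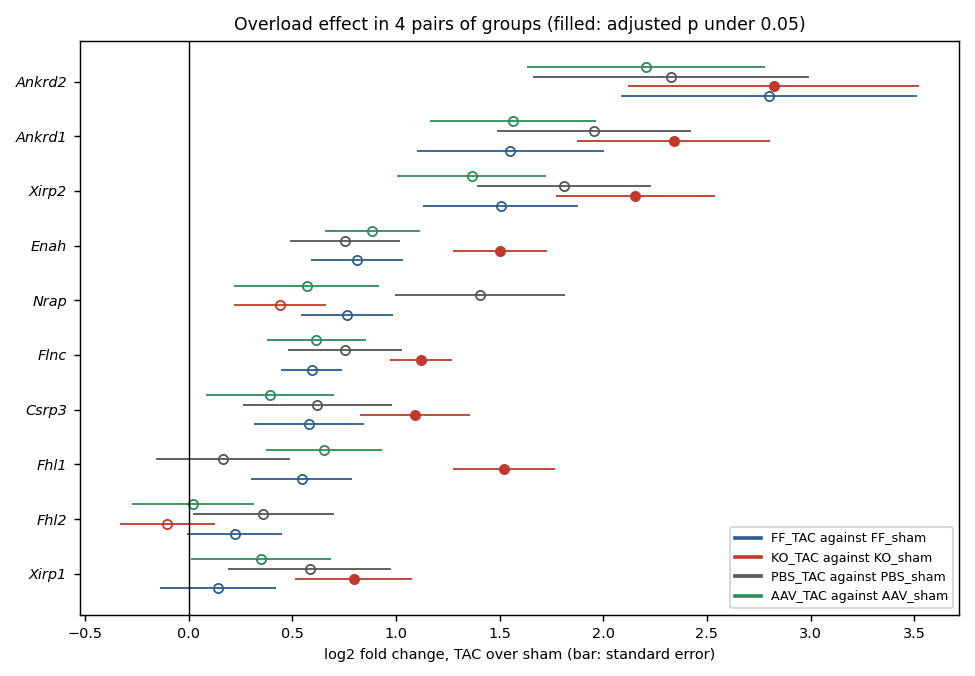
Log2 fold change of each gene after TAC, with its standard error, in the 4 pairs of groups, filled where the edgeR adjusted p was under 0.05. Ankrd2, Ankrd1 and Xirp2 lie farthest to the right in each of the 4 pairs, and the 8 filled points all belong to the knockout.

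Set side by side over the 4 pairs, the ranges of the log2 fold changes overlapped between some members and not between others. Ankrd1, Ankrd2 and Xirp2 ranged from 1.37 to 2.82, above the whole ranges of Flnc, Csrp3, Fhl2 and Xirp1. Enah was between 0.76 and 1.501, Flnc between 0.59 and 1.12 and Csrp3 between 0.39 and 1.09. Fhl2 was between -0.10 and 0.36 and Xirp1 between 0.14 and 0.80. Nrap, at 0.77, 0.44, 1.40 and 0.57 in the floxed, knockout, saline and vector pairs, had its smallest value in the knockout, as did Fhl2 and no other member. Every other member had its highest value there, for example Fhl1 at 0.55, 1.52, 0.16 and 0.65 in the same order. For Ankrd2 the floxed pair was close, at 2.80 against 2.82. The test of such a difference between pairs of groups is the interaction, given further on.

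Under overload, knockout hearts had more Ankrd1, Fhl1 and Enah RNA than floxed hearts. These 3 of the 10 genes were called, all higher, where 14.3% of all genes were called and 7.53% were called higher. The mean of Ankrd1 over 4 hearts was 11900 ± 5100 CPM (SD) in the knockout against 4435 ± 2703 CPM in the floxed control, a log2 fold change of 1.42 (SE 0.45, adjusted p = 0.0464). Fhl1 averaged 357 ± 96.1 CPM against 190.0 ± 70.4 CPM (0.91, SE 0.24, adjusted p = 0.0228), and Enah 360 ± 108 CPM against 208 ± 64.0 CPM (0.79, SE 0.22, adjusted p = 0.0293). The groups overlapped for each of the 3, because FF_TAC 2 exceeded KO_TAC 1. Flnc was at 0.45 (SE 0.15, adjusted p = 0.0528), Xirp2 at 0.76 (adjusted p = 0.173) and Ankrd2 at 0.13 (adjusted p = 0.902). Nrap was at -0.39 (adjusted p = 0.239) and Fhl2 at -0.27 (adjusted p = 0.448). Cell type markers moved in this comparison too. Of the leukocyte markers 3 of 4 were called higher (sums of 65.9 to 90.1 CPM in KO_TAC against 50.3 to 58.1 CPM in FF_TAC), and of the fibroblast markers 3 of 5 (1360 to 2025 CPM against 719 to 829 CPM). Of the endothelial markers 2 of 3 were called lower (320.1 to 469.5 CPM against 486 to 675 CPM), and of the cardiomyocyte markers 2 of 6, Pln and Myh6 (43250 to 59530 CPM against 50020 to 54830 CPM). Of the atrial markers Nppa alone was called, higher, with sums of 4498 to 17210 CPM against 152 to 492 CPM. Of the 4 skeletal muscle markers tested 1 was called higher, with list sums of 3.83 to 21.9 CPM against 2.76 to 4.05 CPM. The part of these shifts in the 3 calls was not tested.

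These 3 calls did not hold in every setting. With the haemoglobin term none was called, with Ankrd1 at 1.20 (adjusted p = 0.148), Fhl1 at 0.68 (adjusted p = 0.103) and Enah at 0.59 (adjusted p = 0.126). Among the haemoglobin-low libraries alone, which set 4 KO_TAC hearts against FF_TAC 2 and FF_TAC 3, they were at 0.85, 0.57 and 0.47 with adjusted p-values of 0.579, 0.600 and 0.679. None was called without FF_TAC 1, FF_TAC 4 or KO_TAC 3, or when only these 2 groups were fitted. Without KO_TAC 2 none of the 3 was called either, and the 1 member called there was Flnc (0.51, adjusted p = 0.04905). Only Enah of the 3 stayed called without KO_TAC 4, and only Fhl1 and Enah without FF_TAC 3. Without KO_TAC 1, 4 were called, with Xirp2 joining at 1.04 (adjusted p = 0.0159), and without FF_TAC 2 also 4, with Flnc at 0.56 (adjusted p = 0.0214). The Cpt1a level of FF_TAC 2 and FF_TAC 3, at 20.3 and 16.2 CPM, was within or near the knockout values of 11.1 to 19.6 CPM.

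**Figure D3:**
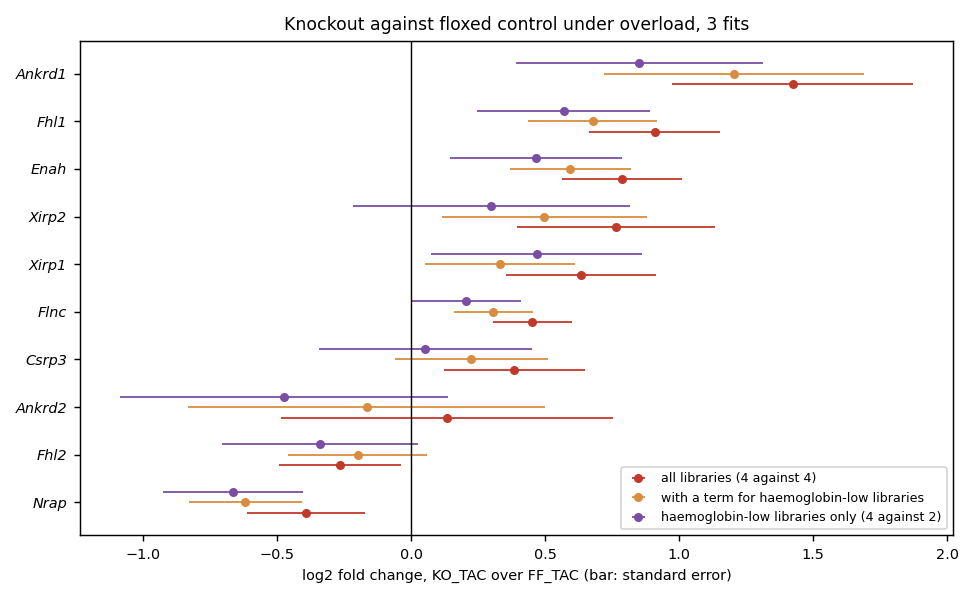
Log2 fold change of each gene in KO_TAC over FF_TAC, with its standard error, in the fit of all floxed-cohort libraries, in the fit with a term for haemoglobin-low libraries, and among those libraries alone. Ankrd1, Fhl1 and Enah stay above 0 in all 3 fits and move toward 0 in the other two, while Nrap moves away from 0, to -0.67.

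Without overload, the knockout did not differ detectably from the floxed control. None of the 10 genes was called and none passed an unadjusted p under 0.05 (0% and 5.22% of all genes did), and DESeq2 called 0 of them, against 0.505%. The largest difference was that of Ankrd1, at 2350 ± 428 CPM in KO_sham and 1512 ± 681 CPM in FF_sham (SD, n = 4), a log2 fold change of 0.64 (SE 0.44, adjusted p = 0.9997). The other 9 lay between -0.13 and 0.11. The test of whether overload acted differently in the knockout called no member, as it called 0.0449% of all genes. At an unadjusted p under 0.05 it had 3 (Fhl1, Enah and Flnc), against 13.1%, and DESeq2 called 0, against 2.35%. The extra rise in the knockout was estimated at 0.97 for Fhl1 (SE 0.34, adjusted p = 0.237), 0.69 for Enah (SE 0.31, adjusted p = 0.364) and 0.53 for Flnc (SE 0.21, adjusted p = 0.294). That for Ankrd1 was 0.79 (SE 0.63, adjusted p = 0.596) and that for Nrap -0.33 (SE 0.31, adjusted p = 0.668). A larger overload response in the knockout was therefore not shown for any of the 10 genes.

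No member was called between vector- and saline-injected hearts, with or without overload, and Cpt1a itself was not called between them either. Cpt1a stood at 54.8 ± 8.08 CPM in AAV_TAC (SD, n = 4) and 52.95 ± 11.2 CPM in PBS_TAC (SD, n = 3), a log2 fold change of 0.05 (edgeR adjusted p = 1). It stood at 71.3 ± 13.4 CPM in AAV_sham and 52.0 ± 15.3 CPM in PBS_sham (0.45, edgeR adjusted p = 0.248). A higher Cpt1a RNA level in the vector groups was thus not shown, and whether the counts include RNA made from the vector is not given in the sources used here. Between AAV_TAC and PBS_TAC none was called, by edgeR (0.0381% of all genes) or DESeq2 (0.232%), and none passed an unadjusted p under 0.05 (3.19%). The log2 fold changes ran from -0.11 for Nrap to 0.29 for Fhl1, with standard errors of 0.25 to 0.55, and with this spread they do not show that the groups were alike. Between AAV_sham and PBS_sham none was called by edgeR (0.0127%) or DESeq2 (1.97%), and none passed an unadjusted p under 0.05 (20.7%). Nrap was at 0.72 (SE 0.38) and Xirp2 at 0.58 (SE 0.39) there, and at 0.29 and 0.28 without PBS_sham 3, while Fhl2 was called without PBS_sham 1 (adjusted p = 0.0369). The interaction of vector and overload called no member (0.00635% of all genes), none passed an unadjusted p under 0.05 (6.95%), and DESeq2 called 0 (0.0793%).

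Genes around the members were followed through 5 lists, whose counts stand beside shares over all genes of 25.8% called and 14.3% called higher in KO_TAC against KO_sham, and of 14.3% called and 7.53% called higher against FF_TAC. The median log2 fold changes against KO_sham were 0.50 for the Z-disc list, 0.71 for the relatives, -0.03 for the costamere list, 0.47 for the chaperones and ligases and 0.23 for stretch signalling, against 0.02 over all genes. Against FF_TAC they were 0.16, 0.18, -0.07, 0.03 and 0.15 in that order, against 0.04 over all genes. Of 23 Z-disc genes tested in the floxed cohort, 8 rose and 1 fell in KO_TAC against KO_sham. Synpo2l, an actin-binding Z-disc protein, rose by 1.72 (SE 0.24, adjusted p = 0.00085), from 160.0 to 528 CPM, and desmin (Des), the intermediate filament that ties Z-discs together, by 1.60 (SE 0.35, adjusted p = 0.00639), from 2278 to 6928 CPM. Fhod3, a formin that builds sarcomeric actin, fell by 0.29 (SE 0.09, adjusted p = 0.0334). Against FF_TAC, 3 rose and 3 fell: Des (1.15) and Synpo2l (0.85) were again the largest rises, and Fhod3 (-0.35) and the giant spring protein titin (Ttn, -0.35, adjusted p = 0.00984) the largest falls. Every KO_TAC heart was below every FF_TAC heart for Ttn.

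Among 10 relatives of the members that were tested, 4 rose and none fell in KO_TAC against KO_sham, led by the LIM protein Csrp2 (1.16, adjusted p = 0.0199) and by Ankrd23 (29.8 to 59.6 CPM, adjusted p = 0.0387), another muscle ankyrin repeat gene. Csrp2, which is also made by smooth muscle cells, was the 1 relative called against FF_TAC (1.55, adjusted p = 0.00728). Of 14 costamere genes, 3 rose, among them Zyx (0.85, adjusted p = 0.0148) and Sgcd (0.87, adjusted p = 0.0221), and Lims1 fell by 0.43 (adjusted p = 0.0312), a share called near that over all genes. Against FF_TAC the only call in that list was dystrophin (Dmd), which fell by 0.98 (SE 0.24, adjusted p = 0.0147), from 69.5 ± 3.28 to 35.3 ± 5.41 CPM (SD, n = 4).

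Of 13 chaperones and ubiquitin ligases of the sarcomere, 5 rose and none fell in KO_TAC against KO_sham. The small heat shock proteins Hspb1 (1.86, adjusted p = 0.00396) and Cryab (1.05, adjusted p = 0.00898) were the largest, while the ubiquitin ligase genes of the list, Trim54, Trim55, Trim63 and Fbxo32, were not called. Hspb1 was also called against FF_TAC (1.34, adjusted p = 0.0233), where Smyd1, a methyltransferase needed for sarcomere assembly, fell by 0.44 (adjusted p = 0.0178). Of 13 stretch signalling genes, 3 rose: Ccn2 (2.50, adjusted p = 0.00220), a matrix protein gene induced by YAP and TGF-beta, Rcan1 (1.54, adjusted p = 0.00712), a calcineurin target, and Srf (0.45, adjusted p = 0.0236), the factor that binds the CArG box. Only Ccn2 was called against FF_TAC (2.37, adjusted p = 0.00273). With the haemoglobin term the number called in KO_TAC against KO_sham was 1 for the Z-disc, chaperone and signalling lists and 0 for the other lists. In KO_TAC against FF_TAC 2 Z-disc genes were called with that term, against 6 without it, and 1 gene in each of the other 4 lists, and among the haemoglobin-low libraries alone no gene of any of the 5 lists was called.

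In the other 8 comparisons edgeR called no gene of the 5 lists, although 0 to 7 genes of a list passed an unadjusted p under 0.05, and other settings did make calls. DESeq2 called 3 Z-disc genes and 1 signalling gene in FF_TAC against FF_sham, 1 Z-disc gene in the knockout interaction, 1 Z-disc and 1 costamere gene in PBS_TAC against PBS_sham, and 3 relatives and 1 gene each of the Z-disc, costamere and signalling lists in AAV_sham against PBS_sham. Without FF_TAC 1, edgeR called 2 Z-disc genes and 1 signalling gene in FF_TAC against FF_sham. Without PBS_sham 1 it called 6 Z-disc genes, 5 relatives and 3 genes of each of the other 3 lists in PBS_TAC against PBS_sham, and 5 Z-disc genes, 7 relatives, 6 costamere genes and 3 genes of each of the other 2 lists in AAV_sham against PBS_sham. With no filter on low counts 2 relatives, and with all 30 libraries in 1 fit 3 relatives, were called in AAV_sham against PBS_sham. With only the 2 groups fitted, 1 Z-disc gene was called in AAV_TAC against AAV_sham.

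Across all 30 libraries, the nearest gene outside the group was found for each member among 10535 genes, as the smallest mean absolute difference of log2 CPM centred on each cohort. Csrp3 had the closest match, the small heat shock protein gene Cryab, at a mean difference of 0.08 against its own mean deviation of 0.39. Xirp1 was nearest to Srf (0.20 against its own mean deviation of 0.34) and Xirp2 to Synpo2l (0.26 against 0.85). Enah and Ankrd2 were both nearest to Otulin (0.12 and 0.30), Nrap to Abcb4 (0.12), Fhl2 to Coq3 (0.11), Flnc to Prnp (0.13), Fhl1 to Enpp1 (0.20) and Ankrd1 to Col8a1 (0.33). For Ankrd1 and Ankrd2 a member was nearer still, namely Xirp2, at 0.33 and 0.27. These distances describe libraries that share surgery, depth and tissue composition.

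**Figure D4:**
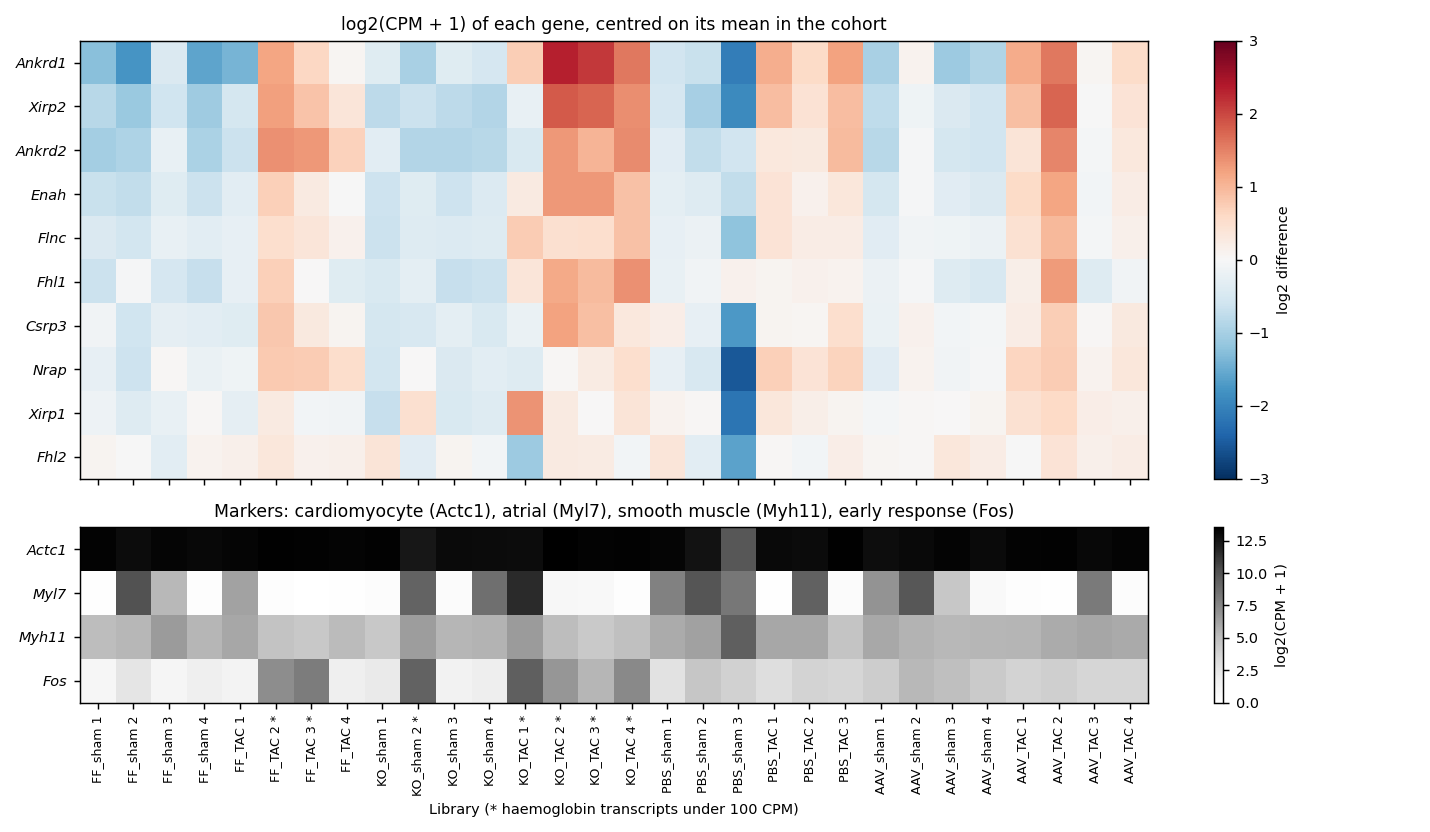
Top, log2(CPM + 1) of each gene in the 30 libraries, centred on its mean in the cohort; bottom, log2(CPM + 1) of Actc1, Myl7, Myh11 and Fos in the same libraries, with an asterisk at the 7 haemoglobin-low ones. KO_TAC 2 to 4 and AAV_TAC 2 are high for Ankrd1, Xirp2 and Ankrd2. FF_TAC 2 and 3 are as high for Ankrd2, at 5.54 and 5.15 CPM against 4.11 to 5.65 CPM in KO_TAC 2 to 4. For Ankrd1 and Xirp2 they are above the cohort mean but below KO_TAC 2 to 4. PBS_sham 3 is low for most genes beside its low Actc1 and high Myh11. KO_TAC 1 differs from its group in high Xirp1 and low Fhl2 beside high Myl7.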

How the data were processed

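Polyadenylated RNA from 30 mouse hearts was sequenced on a stranded library. Whole-number read counts per gene were deposited by the authors; per the submitters' processing notes, HISAT2 2.1.0, featureCounts and Subread 1.5.1 were used on GRCm38. The strand setting and annotation release are not given in the sources used here. Each of the 30 columns was matched to a sample, and identifiers were given GENCODE M21 symbols (55227 of 55487). The members and lists were chosen with earlier results of these data known.

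The cohorts were fitted separately, with a mean for each group, by edgeR 4.0.16's quasi-likelihood test (R 4.3.3), with TMM scaling and the filterByExpr filter, giving 15596 and 15745 genes tested. Calls needed an adjusted p (Benjamini-Hochberg, all genes) under 0.05. Of 10 comparisons, 2 were interactions and the rest set 1 group against another. The code was tested on simulated counts. Nothing says that the hearts of a group came from separate litters or surgery days, so p-values measure only the spread between these samples. Gene counts of 2 libraries of a group differed by a chi-square of at least 6.29 for each degree of freedom, so none was treated as a duplicate.

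Named besides the members were, from each list and comparison, the 2 largest rises and falls among called genes whose higher group averaged 5 CPM or more, the nearest gene of each member, and Cpt1a; the ubiquitin ligases were named after their values were seen. Alternatives were RLE size factors, no filter, a mean of at least 5 CPM, DESeq2 1.42.0, a replicate block, other sets of libraries, leaving out each library, a term for libraries under 100 CPM of haemoglobin transcripts, fits within those or the other libraries, and a log2 Myl7 covariate in the AAV9 cohort. Promoter windows are the 250 bases before the start.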

Additional observations from a re-analysis of the deposited data

Results flagged for a closer look

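A library far from the others of its group was looked for in the 60 combinations of a member and a group of 4 hearts, and 5 met the rule (a gap to the nearest library above Dixon's 95% limit for 4 values), where chance flags about 1 in 20. Ankrd1 was at 2494 CPM in AAV_sham 2, the highest of its group, a library with Myl7 at 911 CPM. Ankrd2 was at 1.14 CPM in FF_sham 3 and at 1.01 CPM in KO_sham 1, both the highest of their groups and both near the limit of detection. Fhl2 was at 1745 CPM in FF_TAC 2, which was the highest of its group for all 10 genes. Flnc was at 321 CPM in KO_sham 1, the lowest of its group.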

How the results depend on the processing

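Over 1698 alternative values of the members' differences, 1556 kept their direction and their side of the threshold, 74 changed sign where neither fit called them, 40 lost a call, 28 gained one and none changed sign while called. Most of these values belong to results not called in the main fit. For the 11 results called there, 138 of 178 alternatives stayed called in the same direction. Of 171 alternative counts of called members, 154 stayed within 1.5 times the main count. That main count was 0 in every comparison except KO_TAC against KO_sham and KO_TAC against FF_TAC. With DESeq2 the count was 5 in floxed controls, 4 in saline-injected and 4 in vector-injected hearts after TAC, against 0 with edgeR, and with no filter it was 2 in saline-injected hearts. The haemoglobin term left 2 of 8 in KO_TAC against KO_sham and 0 of 3 in KO_TAC against FF_TAC, where fits of the haemoglobin-low libraries alone or of the 2 groups alone also left 0; these have fewer libraries or more terms. Leaving out 1 library gave 0 to 1 called in FF_TAC against FF_sham, 7 to 8 in KO_TAC against KO_sham, 0 to 4 in KO_TAC against FF_TAC, 0 to 4 in PBS_TAC against PBS_sham and 0 to 1 in AAV_sham against PBS_sham; the other 5 comparisons stayed at 0. The call of Xirp1 in KO_TAC against KO_sham was lost with no filter, with all 30 libraries in 1 fit, with only the 2 groups and without any of 6 single libraries. The replicate numbers gave no sign of a general pairing. Same-numbered libraries had a median correlation of deviations of 0.035 in the floxed and 0.009 in the AAV9 cohort. Differently numbered libraries had 0.012 and 0.017. Single same-numbered pairs ran from -0.4 to 0.435 and from -0.49 to 0.407, and whether some shared a litter or day was not tested. With a replicate block, 7 of the 10 members were called in KO_TAC against KO_sham, without Xirp1 (adjusted p = 0.0658), and 3 in KO_TAC against FF_TAC. Ankrd2 was not tested under the filter of 5 CPM. Depth limits only Ankrd2, whose sham means were 0.394 to 0.540 CPM.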
